A study of Homo sapiens with 8 samples.

Results

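The late-only sites were the ORCA peaks of the late G1 list on chromosomes 1 to 22 that shared no base with any ORCA peak of the early or mid G1 list. There were 274 of them among 1321 late peaks (20.7%, 95% Wilson interval 18.6 to 23.01). The remaining 1047 late peaks shared at least 1 bp with an earlier peak and are called the other late peaks. The late-only sites were chosen by the peak positions of the 3 ORCA lists, so their absence from the earlier lists and their distance to earlier peaks are given as descriptions. The MeDIP list took no part in the choice.

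The cells were U2OS, a human osteosarcoma line, synchronized at early, mid or late G1 for the ORCA samples, which were assayed by ChIP-seq (sequencing of DNA pulled down with an antibody to the protein). For the MeDIP-seq sample, in which DNA with methylated cytosine is enriched by an antibody before sequencing, the labels give no stage. Each of these 4 samples had an input, which gives 8 groups of 1 sample, and the 4 inputs were not analysed here. All groups came from 1 cancer cell line, and neither an added agent nor the way of synchronizing was given in the sources used here. On chromosomes 1 to 22 the lists held 10640 early, 10306 mid, 1321 late and 73054 MeDIP peaks. Read depth was not given. With 1 sample per stage there is no replicate error to set a difference between stages against. The intervals below are 95% intervals for counting error over peaks, and neighbouring peaks are not independent of each other.

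ORCA (LRWD1) is a protein with WD repeats that binds the origin recognition complex, the assembly that loads the replicative helicase onto DNA during G1 and so marks where replication can begin. It is known for stabilising that complex on chromatin and for its place at heterochromatin, where repressive histone marks and methylated CpG are common. A peak in these lists is a stretch where the authors' peak caller found enrichment, and its score is that caller's own. A site with no peak in a list may still be bound below the caller's threshold. Coordinates are those of hg19. An annotation of that build was not used here, so no genes were assigned to the peaks.

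The late-only sites were spread over all 22 chromosomes, in other proportions than the late list as a whole. Chromosome 7 held 30, chromosomes 17 and 19 held 24 each, chromosome 8 held 21 and chromosome 1 held 20. Chromosomes 11, 13 and 21 had the fewest, with 5 each. Chromosomes 7 and 8 together held 32.2% of all late peaks but 18.6% of the late-only peaks.

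Chromosome 19 stood at the other side of the range. There, 24 of 52 late peaks were late-only (46.2%, interval 33.3 to 59.5), against 250 of 1269 on the other 21 chromosomes (19.7%). The difference was 26.5 percentage points (interval 13.4 to 39.96). The shares on chromosomes 7 and 8 were 12.4% (interval 8.86 to 17.2) and 11.4% (interval 7.55 to 16.7). Chromosome 12 came second, with 11 of 30 late peaks (36.7%, interval 21.9 to 54.5), followed by chromosome 15, with 10 of 28 (35.7%, interval 20.7 to 54.2), and the intervals of these 3 chromosomes overlapped. Chromosome 19 was singled out after its share was seen, so the interval of its difference is no test of that difference. It is known as a chromosome rich in genes and in zinc finger gene clusters. It carried 175 early and 183 mid peaks, against 1603 and 1524 on chromosome 7 and 1298 and 1278 on chromosome 8. A late peak among many earlier peaks has more of them to overlap, so the shares by chromosome are tied to the rule in part. Chromosome 21 carried 152 and 164 earlier peaks, and 14.3% of its late peaks were late-only. The early and mid lists were also cut by score to 1321 peaks each, as many as in the late list. Chromosome 3 then ranked first among chromosomes with at least 20 late peaks, with 76.2% of its late peaks late-only.

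**Figure D1:**
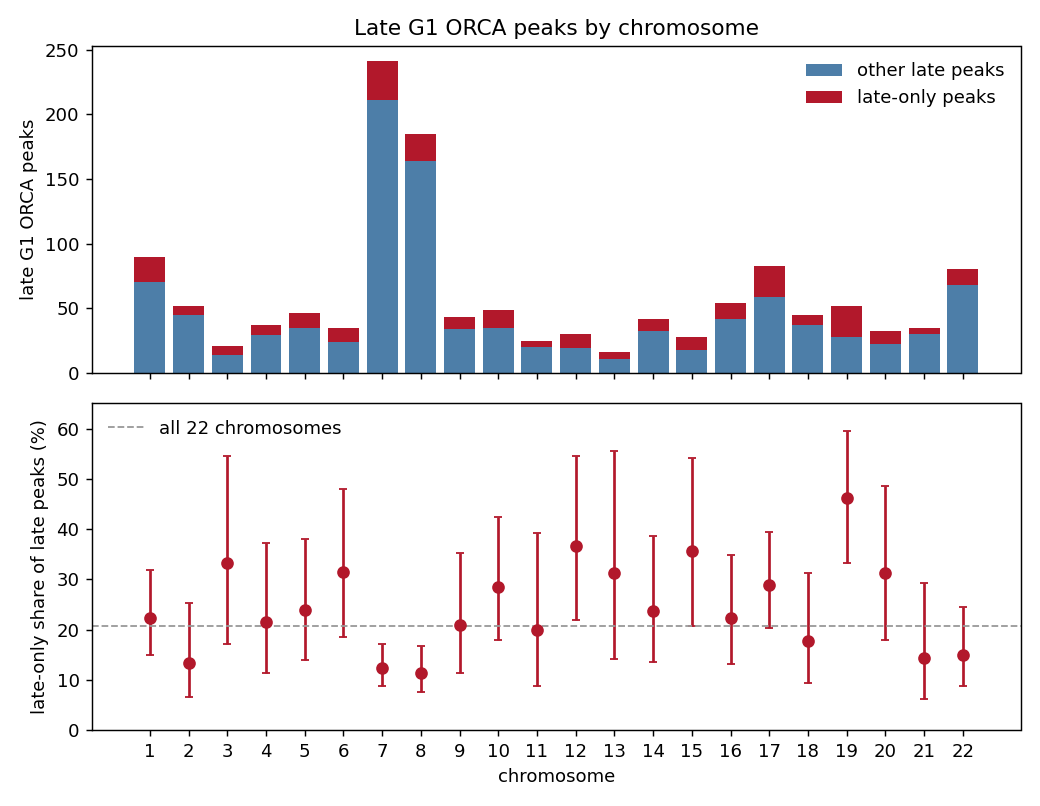
The upper panel plots the number of late G1 ORCA peaks per chromosome, late-only peaks in red above the other late peaks in blue. The lower panel plots the late-only share of the late peaks in percent with 95% Wilson intervals and, dashed, the share over all 22 chromosomes of 20.7%. Chromosome 19 has the highest share, 46.2%, and chromosome 8 the lowest, 11.4%.

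Of the late-only peaks, 142 of 274 lay within 10 kb of an earlier ORCA peak without touching it. The median gap to the nearest early or mid peak was 8.425 kb (interval 6.72 to 12.4), with quartiles of 2.39 and 44.3 kb. The gap depends on the length of the earlier lists: it was 19.2 kb against their higher-scoring part and 82.7 kb when each was as long as the late list, which also makes more late peaks late-only. The gap was at most 1 kb for 49 peaks, 1 to 10 kb for 93, 10 to 100 kb for 90, 100 kb to 1 Mb for 39 and over 1 Mb for 3. Early and mid peaks were at similar distances: the median gap was 20.8 kb (interval 12.02 to 28.4) to early and 17.6 kb (interval 12.1 to 25.6) to mid peaks. The early peak was the nearer one for 130 sites, the mid peak for 143, and 1 site was equally far from both. For the other late peaks, the nearest early or mid peak that did not overlap them was at a median of 0.962 kb.

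The neighbourhood was also thinner beyond the nearest peak. Between 100 kb and 1 Mb from the midpoint of a late-only peak there was a median of 27 early and mid peaks, against 50 around the other late peaks. Of the late-only peaks, 154 (56.2%) had no second late peak within 100 kb, against 292 of the other late peaks (27.9%). MeDIP peaks within 100 kb numbered a median of 9 and 20. The early and mid lists also chose the late-only peaks, so the count of earlier peaks is tied to the rule in part. The dense ends of chromosomes 7 (up to 7 Mb) and 8 (beyond 140 Mb) held 29.4% of the other late and 8.03% of the late-only peaks. These neighbour counts were not repeated without those ends.

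**Figure D2:**
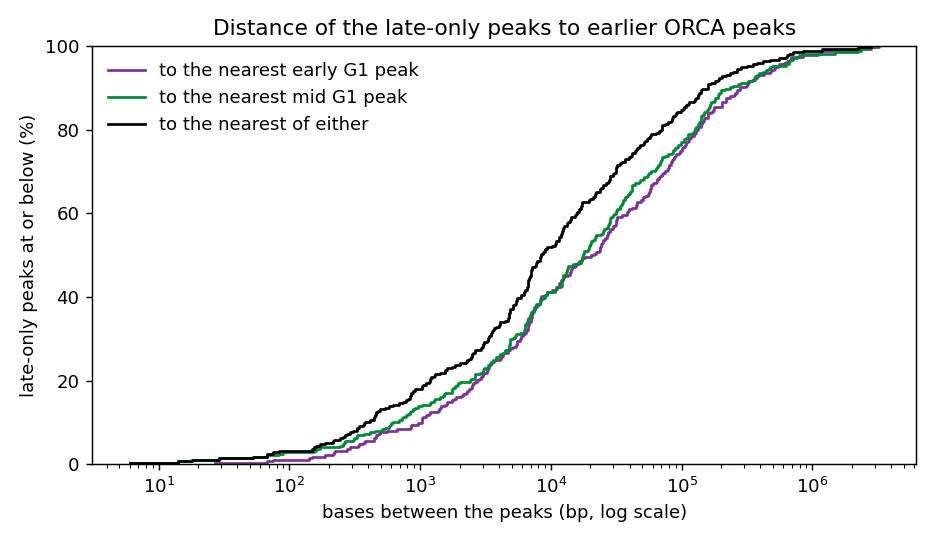
Cumulative percentage of the 274 late-only peaks by the number of bases to the nearest early G1, mid G1 or either peak, on a log axis. The early and mid curves run close together, and the curve for either peak crosses its median at 8.425 kb.

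The sites at the edge of the rule show how fine this line was. The nearest late-only peak was on chromosome 19 from 47729681 to 47730101, 6 bp from a mid peak and 3381 bp from an early one, with a score of 51.14. The peak on chromosome 21 from 33157370 to 33158187 was 14 bp from a mid and 27 bp from an early peak. That on chromosome 8 from 146156197 to 146157320 was 18 bp, and that on chromosome 14 from 19747697 to 19748745 was 29 bp, from a mid peak. The last of the 5, on chromosome 7 from 154451916 to 154452470, was 53 bp from a mid peak but 2.17 Mb from any early peak. Just outside the rule, the late peak on chromosome 22 from 50709381 to 50709868 shared 14 bp with a mid peak. The late peaks at 90287509 to 90288519 of chromosome 2 and at 60881756 to 60882339 of chromosome 20 each shared 27 bp with an early peak. On chromosome 18, the late peak from 76795556 to 76796046 shared 32 bp with an early and 27 bp with a mid peak, and on chromosome 13 the one from 114622084 to 114623115 shared 39 bp with an early peak. The scores of these 5 were 52.39 to 92.16, inside the range of the late-only peaks.

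At the other extreme, 42 late-only peaks had no early or mid peak within 100 kb, and 38 of them also had no other late peak within that distance of their midpoint. The most remote was that on chromosome 6 from 23019669 to 23020018, 2.79 Mb from the nearest early and 3.04 Mb from the nearest mid peak. Another on chromosome 6, from 104157109 to 104157541, was 2.25 Mb from the nearest mid peak. Both were narrow, 350 and 433 bp, with scores of 52.23 and 52.09, close to the lowest score in the list. The next 3 had higher scores. The peak on chromosome 11 from 121960092 to 121961171 scored 135.22 and was 1.18 Mb from an early peak. That on chromosome 19 from 12060042 to 12060900 scored 126.88 at 842 kb, and that on chromosome 1 from 173830789 to 173832043 scored 161.95 at 712 kb. None of these 5 overlapped a MeDIP peak. Remote sites were thus of both kinds, and across the 274 peaks the rank correlation of gap and score was -0.035 (Spearman, a description over peaks of 1 library).

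Late-only peaks were narrower and scored lower than the other late peaks. The median width was 689 bp (interval 643 to 749) against 1029 bp (interval 987 to 1082), a difference of -340 bp that became -224 bp without the dense ends of chromosomes 7 and 8 (up to 7 Mb and beyond 140 Mb). The median score was 59.9 against 73.8. The median rank in the late list, where 0 is the highest and 1 the lowest score, was 0.682 against 0.445. A score under 60 was found for 139 late-only peaks (50.7%) and for 284 other late peaks (27.1%). With the list split by score into 5 equal parts, from the highest to the lowest, late-only peaks made up 6.42%, 13.3%, 21.97%, 25.4% and 36.7% of the peaks. By width they made up 33.1% of late peaks under 500 bp and 7.48% of those of 1500 to under 3000 bp, and there was 1 late-only peak of 3000 bp or more. A wider peak has more room to overlap another, so width is tied to the rule.

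The 4 classes of late peaks were ordered in score. Median scores were 59.9 for late-only peaks, 61.6 for the 121 that overlapped an early but no mid peak, 65.9 for the 184 that overlapped a mid but no early peak and 81.7 for the 742 that overlapped both. The median widths were 689, 939, 843 and 1124.5 bp in the same order.

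**Figure D3:**
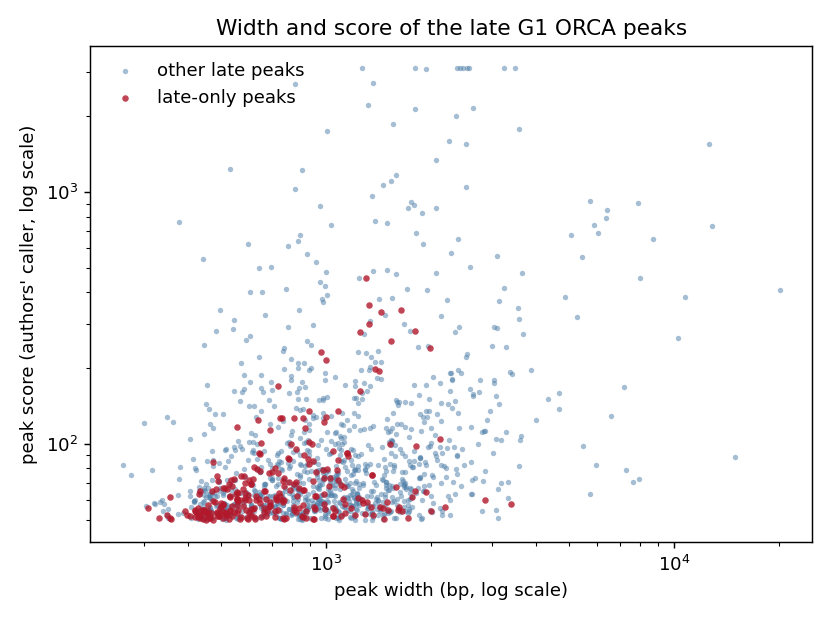
Each point is 1 late G1 ORCA peak by its width in bp and its score from the authors' caller, both on log axes, with late-only peaks in red and other late peaks in blue. The late-only peaks lie mostly at low width and score, with 31 at a score of 100 or more and a highest score of 454.

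A small group of late-only peaks scored high. Of the 274, 31 reached a score of 100 (11.3%), against 28.1% of all late peaks, and 8 were among the highest 10% of the late list. These 31 lay on 12 chromosomes, 8 of them on chromosome 19, 6 on chromosome 7 and 3 on chromosome 12. Those 3 chromosomes held 3.94%, 18.2% and 2.27% of all late peaks, in the same order. Their shares of all late peaks with a score of at least 100 are not given here. Whether late peaks on these chromosomes score high in general was thus not tested. The median width of the 31 peaks was 1001 bp, from 555 to 2124 bp, and 12 of them had an early or mid peak within 10 kb.

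The 10 highest scores were on 4 chromosomes. The highest late-only peak, with a score of 454, lay on chromosome 7 from 57187318 to 57188620, 135 kb from the nearest mid and 176 kb from the nearest early peak. The 3 others on chromosome 7 were at 56534032 to 56535358, with a score of 301 and 6.72 kb from a mid peak, at 63537883 to 63539415, with 256 and 20.9 kb from a mid peak, and at 62751802 to 62752767, with 232 and 133 kb from an early peak. These 4 flank the stretch of chromosome 7 from 57928394 to 61668027, the longest on that chromosome without a peak in any list, which spans the centromere. A further late-only peak beyond that stretch, from 62547450 to 62548259, scored 127. None of these 5 overlapped a MeDIP peak.

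On chromosome 19 the 3 highest were at 58772981 to 58774305, with a score of 355 and 133 kb from an early peak, at 37618664 to 37619913, with 279 and 139.5 kb from a mid peak, and at 37792652 to 37794634, with 241 and 13.3 kb from a mid peak. The first and the last of these overlapped a MeDIP peak. Chromosome 12 had a pair near its end, from 133633970 to 133635611 with a score of 340.2 and from 133502177 to 133503615 with 336, at 178 and 309.7 kb from the last peak of the chromosome. The last of the 10 was on chromosome 11 from 65194648 to 65196448, scored 282 and was 3.46 kb from an early and 4.27 kb from a mid peak. All 10 were between 966 and 1983 bp wide, and 2 of the 10 overlapped a MeDIP peak, close to the 19.7% of all late-only peaks.

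The 24 late-only peaks of chromosome 19 ran along the whole chromosome. By 10 Mb windows from its start there were 5, 2, 2, 6, 3 and 6, among 10, 3, 6, 15, 7 and 11 late peaks. Their median score was 68.9 and their median gap to an earlier peak 53.9 kb. They included a neighbouring pair near the chromosome's start, from 393774 to 394246 and from 394875 to 395767, with scores of 85.1 and 136. Beside the high-scoring pair between 37 and 38 Mb lay another peak, at 37904092 to 37904958, with a score of 115, 124.8 kb from the nearest earlier peak. Towards the end of the chromosome, the peak at 56934893 to 56935881 scored 122 and that at 58639274 to 58640091 scored 95.1. Of the 24, 3 overlapped a MeDIP peak.

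The widest late-only peaks were of another kind. They lay on chromosome 17 from 21547896 to 21551298 (3403 bp), chromosome 1 from 142785021 to 142787891 (2871 bp), chromosome 9 from 45370609 to 45372808 (2200 bp), chromosome 16 from 33949931 to 33952054 (2124 bp) and chromosome 22 from 25493070 to 25495066 (1997 bp). Their scores were 54.04 to 59.95, apart from 104.7 on chromosome 16. The nearest earlier peak was 2.62 to 6.59 kb away. The first 4 lay within 5 Mb of the longest peak-free stretch of their chromosome, and none of the 5 overlapped a MeDIP peak.

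Late-only peaks were less often near chromosome ends than the other late peaks. An end was taken as position 1 of the chromosome or the end of its last peak in any of the 4 lists. Within 5 Mb of one lay 65 of 274 (23.7%, interval 19.1 to 29.1) against 480 of 1047 (45.8%, interval 42.8 to 48.9), where the share over all late peaks was 41.3%. The difference was -22.1 percentage points (interval -27.7 to -16.0). The density of early and mid peaks differs along chromosomes: the first 10 Mb of chromosome 7 held 1224 early and 1139 mid peaks. A late peak among many earlier peaks has more of them to overlap, so nearness to an end is tied to the rule in part. The median distance to an end was 21.4 Mb for late-only and 5.64 Mb for the other late peaks. Within 1 Mb of an end there were 26 late-only peaks (9.49%) against 171 others (16.3%), a difference of -6.84 percentage points (interval -10.6 to -2.27).

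The ends of chromosomes 7 and 8 carried much of this. Chromosome 7 up to 7 Mb and chromosome 8 beyond 140 Mb, where ORCA peaks are dense at each stage, together held 308 of the other late peaks (29.4%) and 22 of the late-only peaks (8.03%). Without these parts the shares near an end were 18.7% and 30.9%, and the difference was -12.2 percentage points (interval -17.7 to -6.03).

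Beside the longest peak-free stretch of each chromosome, within 5 Mb, lay 60 late-only peaks (21.9%, interval 17.4 to 27.2) and 200 of the others (19.1%, interval 16.8 to 21.6), against 19.7% of all late peaks. This stretch spans the centromere on most chromosomes and the start on chromosomes 13, 14, 15, 21 and 22. The difference of 2.80 percentage points had an interval of -2.34 to 8.53, so that no difference was detectable there. Single chromosomes, picked after their counts were seen, went in both directions. On chromosome 10 it was 11 of 14 late-only and 14 of 35 other late peaks. On chromosome 21 it was 0 of 5 and 20 of 30, and on chromosome 2 it was 0 of 7 and 16 of 45.

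MeDIP peaks were less often found at late-only peaks. A site without a MeDIP peak was not shown to be unmethylated. A MeDIP peak overlapped 54 of 274 late-only peaks (19.7%, interval 15.4 to 24.8) and 579 of 1047 other late peaks (55.3%, interval 52.3 to 58.3), where 47.9% of all late peaks had one. The difference was -35.6 percentage points (interval -40.8 to -29.7). Without the dense ends of chromosomes 7 and 8 the shares were 17.5% and 45.1%, and the difference was -27.6 percentage points (interval -33.1 to -21.3). Of the bases in late-only peaks, 12.8% lay inside a MeDIP peak, against 45.2% of the bases in the other late peaks. The median distance to the nearest MeDIP peak was 8.445 kb for late-only peaks, while more than 50% of the other late peaks shared bases with one. No MeDIP peak lay within 100 kb of 28 late-only peaks (10.2%) and of 23 others (2.20%).

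Each class of late peaks that overlapped an earlier stage had a higher MeDIP share. It was 41.3% (interval 32.9 to 50.2) where an early but no mid peak was overlapped, 37.5% (interval 30.8 to 44.7) where a mid but no early peak was, and 62.0% (interval 58.4 to 65.4) where both were. Among sites of a single stage, 22.98% of the 7049 early-only peaks and 43.3% of the 6744 mid-only peaks overlapped a MeDIP peak. Early and mid peaks that overlapped another stage had higher shares, 59.4% of 3591 and 58.7% of 3562. A lower share at single-stage sites was thus not particular to late G1. The 3 ORCA lists differ in length, so each kind of single-stage peak was set against lists of other lengths. The late-only share differed from the early-only share by -3.27 percentage points (interval -7.67 to 1.93) and from the mid-only share by -23.6 (interval -28.0 to -18.4). Early-only and mid-only peaks were narrower, with medians of 517 and 548 bp.

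The gap between late-only and other late peaks was present at equal width and at equal score. Among peaks under 500 bp the MeDIP shares were 13.2% of 53 and 29.9% of 107, and among peaks of 1000 to under 1500 bp they were 17.8% of 45 and 66.9% of 242. The difference was smallest at 500 to under 750 bp, the class with the most late-only peaks. There the shares were 25.7% of 101 and 41.1% of 190, a difference of -15.3 percentage points (interval -25.7 to -3.81). In the other late peaks the share rose with width, from 29.9% to 67.7% of those of 1500 to under 3000 bp. In the late-only peaks it was between 13.2% and 25.7% in these 5 width classes. By score, it was 11.8% of the 17 late-only peaks in the highest of 5 equal parts of the list and 16.5% of the 97 in the lowest, against 49.6% and 53.3% of the others. With the other late peaks reweighted to match the late-only peaks in width, their share was 46.8%, and the difference -27.0 percentage points (interval -32.6 to -20.8). Weighted to these 5 parts by score, it was -36.1 (interval -41.7 to -29.9).

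**Figure D4:**
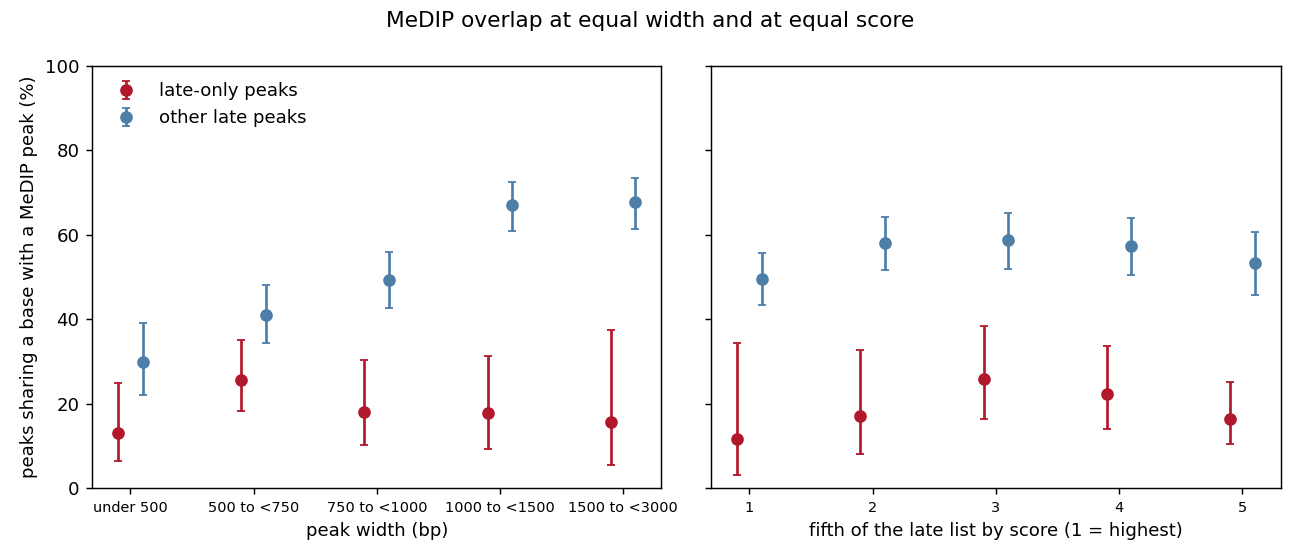
Percentage of late G1 ORCA peaks that share a base with a MeDIP peak, by peak width in bp (left, classes with at least 10 late-only peaks) and by 5 equal parts of the late list by score (right), with 95% Wilson intervals. Late-only peaks (red) lie below the other late peaks (blue) in each class. For widths of 1000 to under 1500 bp they are at 17.8% against 66.9%, and for 500 to under 750 bp at 25.7% against 41.1%.

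Around their midpoints, late-only peaks showed no rise in MeDIP peaks above their surroundings that the number of sites could resolve. The midpoint lay inside a MeDIP peak in 38 of 274 (13.9%, interval 10.3 to 18.5), and positions 5 to 20 kb away were inside one in 11.1% on average, with a range of 8.03% to 13.5%. For the other late peaks the values were 43.6% at the midpoint (interval 40.6 to 46.6) and 22.6% at 5 to 20 kb. Mid-only peaks had 37.97% at the midpoint and 14.8% around it, and early-only peaks 16.8% (interval 15.9 to 17.7) and 10.97%. The other late peaks thus lay in surroundings with more MeDIP peaks, and had a further rise at the site itself. The dense ends of chromosomes 7 and 8 held 29.4% of the other late and 8.03% of the late-only peaks. These profiles were not repeated without those ends or at equal width.

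**Figure D5:**
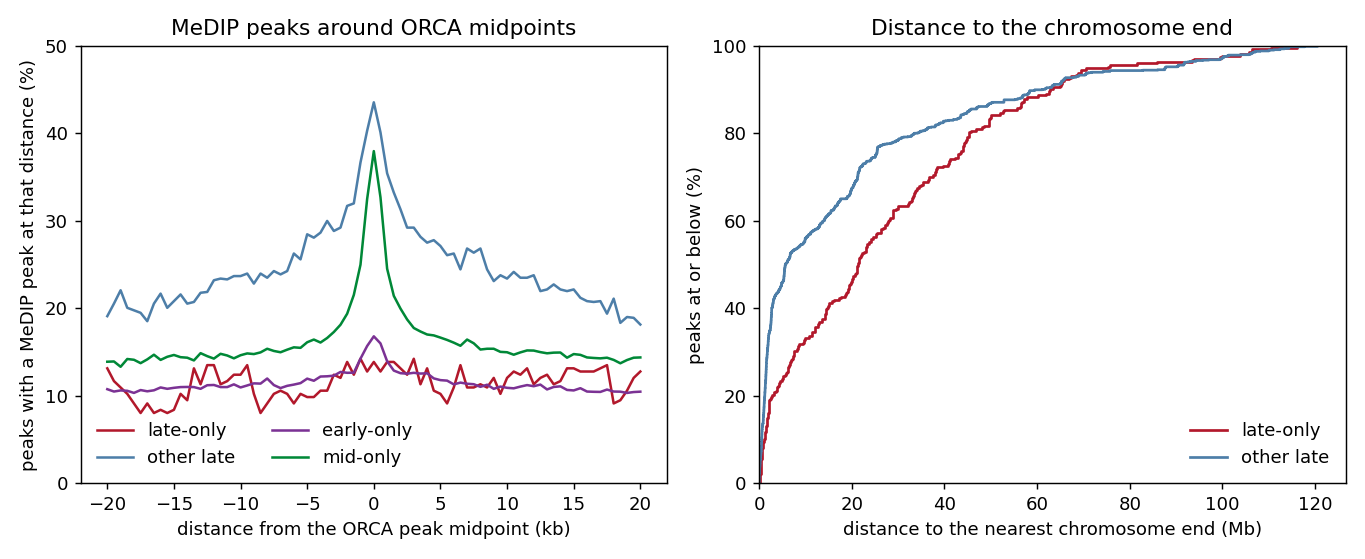
Left, the percentage of ORCA peaks with a MeDIP peak at each distance from their midpoint, in kb, for late-only, other late, early-only and mid-only peaks. Right, the cumulative percentage of late-only and other late peaks by distance to the nearest chromosome end in Mb. The late-only line is nearly flat on the left, with 13.9% at the midpoint against 43.6% for the other late peaks, and rises later on the right, with 23.7% against 45.8% within 5 Mb.

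Among late-only peaks, a MeDIP peak was more frequent near chromosome ends and near earlier ORCA peaks. Within 5 Mb of an end, 28 of 65 late-only peaks had one (43.1%, interval 31.8 to 55.2), against 26 of 209 elsewhere (12.4%, interval 8.63 to 17.6). The other late peaks had 66.5% and 45.9% in the same places, so that the difference was -23.4 percentage points near ends (interval -35.4 to -10.5) and -33.4 elsewhere (interval -39.0 to -26.8). Of the 142 late-only peaks within 10 kb of an early or mid peak 43 overlapped a MeDIP peak (30.3%, interval 23.3 to 38.3). Of the 90 at 10 to 100 kb 8 did (8.89%, interval 4.57 to 16.6), and of the 42 farther away 3 did (7.14%, interval 2.46 to 19.01). The median widths of these 3 groups were 740, 687.5 and 539.5 bp.

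Among the 31 late-only peaks with a score of at least 100, 3 overlapped a MeDIP peak (9.68%, interval 3.35 to 24.9), against 178 of 340 other late peaks with such a score (52.4%). They were the peaks on chromosome 19 from 58772981 and from 37792652 and that on chromosome 7 from 154451916, which scored 117. The next by score were on chromosome 17 from 80014420 to 80015211, with 99.6 and 573 bp from a mid peak, and on chromosome 5 from 14461063 to 14461846, with 87.0 and 25.2 kb from a mid peak. By chromosome, the MeDIP share was lower in late-only than in other late peaks on 21 of 22 chromosomes, some with as few as 5 late-only peaks. The exception was chromosome 11, with 2 of 5 late-only and 3 of 20 other late peaks. On chromosome 22 the counts were 6 of 12 and 39 of 68, on chromosome 17 they were 7 of 24 and 36 of 59, and on chromosomes 2 and 4 they were 0 of 7 and 17 of 45, and 0 of 8 and 17 of 29. Where late-only peaks did overlap a MeDIP peak, the best such peak had a median rank of 0.188 within the MeDIP list, against 0.0942 for the other late peaks. A wider peak can overlap more MeDIP peaks, of which the best was taken. The other late peaks were wider, and this rank was not compared at equal width.

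The number of late-only peaks depends on the lists. Counting earlier peaks within 10 kb as overlap left 132, the higher-scoring part of the late list held 79, and with early and mid lists as long as the late list there were 649. The late list carries a different number in its caller's name than the earlier lists, and what that number stands for was not stated. The part of the calling in these counts was not tested.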

How the data were processed

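ORCA ChIP-seq was done at 3 stages of G1 and MeDIP-seq once, with no stage in its labels, all in U2OS cells with 1 sample per group. The authors deposited 1 peak list for each pulled-down sample, 4 in all, with a start, an end and a score per peak. The score was taken as the authors' own, no source used here defines it, and it was compared only within a list. Per the submitters' processing notes, Trimmomatic and Bowtie 0.12.7 were used with GRCh37, also called hg19. The names of the peaks start with MACS, a peak caller, whose version, settings and control the sources do not give.

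Starts counted from 0 were printed from 1. Late peaks on chromosomes 1 to 22 with no early or mid peak sharing 1 bp were the late-only peaks. Shares have 95% Wilson intervals, their differences 95% Newcombe intervals and medians intervals from binomial order statistics, all for counting error only. A difference counted as such when its interval left out 0, except that of chromosome 19, which was picked by its share. Ends were position 1 and the last peak of any list.

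Regions named were the 10 highest-scoring late-only peaks, the 5 farthest from and 5 nearest to earlier peaks, the 5 widest, the 5 highest-scoring with MeDIP, the 5 fullest 1 Mb bins and, outside the rule, the 5 late peaks with the fewest shared bases, with ties taken by position. The peaks of chromosomes 7 and 19 beyond these were named after their values were seen. The members, lists and alternatives were chosen with earlier results of these data known. Counting was tested on simulated lists, where 200 of 200 planted late-only peaks were found in a list of 1321. The genes at peaks were not run, since no hg19 annotation was used here. Calculations used Python 3.11.15, numpy 2.4.6, pandas 2.3.3 and scipy 1.17.1, with figures from matplotlib 3.10.9.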

Additional observations from a re-analysis of the deposited data

How the results depend on the processing

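The lower MeDIP share of late-only peaks kept its direction, with an interval that left out 0, under all 15 alternatives, from -44.0 to -23.4 percentage points. Of these, the split by distance to a chromosome end was chosen after seeing the data. The lower share near chromosome ends, which is tied to the rule in part, did so under all 11, from -32.4 to -6.84. The number of late-only peaks, 274, stayed within 1.5 times under 6 of 9 alternatives. It was 132 when earlier peaks within 10 kb counted as overlap, 79 in the higher-scoring part of the late list, where only 660 late peaks were used, and 649 with early and mid lists as long as the late list. The median gap to an earlier peak rose by construction to 14.3 kb when peaks within 1 kb, and to 47.7 kb when peaks within 10 kb, counted as overlap. It was 19.2 kb against the higher-scoring part of the early and mid lists and 82.7 kb against lists as long as the late one. Late-only peaks were narrower than the others under each alternative, and the difference of -340 bp in median width became -224 bp without the dense ends of chromosomes 7 and 8, for which the cause was not tested. The difference in median rank, 0.237, was 0.0840 in the higher-scoring part of the late list, which removes the lower ranks, and 0.309 against early and mid lists as long as the late list. Only chromosomes with at least 20 late peaks were ranked. Among these, chromosome 19 had the highest late-only share under 8 of 9 alternatives. With the shortened early and mid lists chromosome 3 did, at 76.2%. No paired analysis was possible because each group had 1 sample, and for the same reason no replicate was left out. Read depth was not given, so what it limits could not be computed.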

Other observations

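The 274 late-only peaks fell into 207 bins of 1 Mb, of which 156 held 1, 39 held 2, 8 held 3 and 4 held 4. The nearest second late-only peak was at a median of 689 kb, and it lay within 100 kb for 42 and within 1 kb for 9 of the 274. The fullest bins were unlike each other in their surroundings. On chromosome 1, between 28 and 29 Mb, 4 of 5 late peaks were late-only, among 5 early and 4 mid peaks. Of them, 3 were narrow neighbours, from 28836464 to 28836919, from 28837084 to 28837699 and from 28837817 to 28838347, with scores of 52.95, 55.13 and 61.87, and the fourth was at 28975123 to 28975834 with 80.23. On chromosome 8, between 145 and 146 Mb, 4 of 63 late peaks were late-only, among 197 early and 213 mid peaks, and 3 of the 4 overlapped a MeDIP peak. These lay 266 to 371 bp from an earlier peak.

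The other full bins lay beside peak-free stretches that span centromeres, and none of their late-only peaks overlapped a MeDIP peak. On chromosome 4, between 49 and 50 Mb, 4 of 9 late peaks were late-only, with scores of 56.09 to 78.81, the last of them from 49622640 to 49623159, where the stretch without a peak begins. On chromosome 18, between 14 and 15 Mb, 4 of 14 were, with 3 of them between 14266842 and 14282249 and all 4 within 21.7 kb of a mid peak. On chromosome 7, between 57 and 58 Mb, 3 of 5 were, with scores of 69.3, 454 and 55.5.

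Chromosome X added 7 late peaks, and the number of late-only peaks was 274 with and without it.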
